A study of Mus musculus with 4 samples.

Results

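The CREB3 and ATF6 proteins are transcription factors of the basic leucine zipper class that are made as membrane proteins of the endoplasmic reticulum (ER). The genes described here are Creb3, Creb3l1, Creb3l2, Creb3l3, Creb3l4, Atf6 and Atf6b, together with Mbtps1 and Mbtps2, which encode the Golgi proteases that release the factors. Members were all array probes whose RefSeq accession maps to one of these 9 genes. They numbered 14 of the 56558 distinct probes used, for 9 of the 23771 genes with a probe, and all 14 were well above background on all 4 arrays. The gene set was selected on the measured difference between fluoxetine and control arrays in these data, so the values of the members are given as a description, without p-values.

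In resting cells these factors span the ER membrane with the DNA-binding part facing the cytosol. When folding in the ER is disturbed, or by other signals for the CREB3 proteins, they travel to the Golgi. There the site-1 protease (Mbtps1) cuts the lumenal side and the site-2 protease (Mbtps2) cuts within the membrane, and the freed fragment enters the nucleus. The arrays measure transcripts and not this cleavage. ATF6 is known for raising ER chaperones, CREB3L1 and CREB3L2 for the secretory machinery and collagen, CREB3 for Golgi stress genes, and CREB3L3 for lipid and acute phase genes of liver and intestine.

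The cells were S-180, a mouse sarcoma line that can be passed as a tumour or, as here, in culture. RNA was taken without any treatment (2 control arrays) or after 20 µM fluoxetine, a serotonin reuptake inhibitor, for 12 h (2 fluoxetine arrays). Control cultures were kept for the same 12 h. The labels call the samples of a group biological replicates without saying that they came from separate cultures, so p-values measure only the spread between these samples. Each sample was run on a single-colour Agilent array, and all 4 arrays lay on 1 slide.

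Between 51.7% and 53.5% of non-control spots per array were well above background and none was saturated (0 spots), and precision is limited by the number of arrays. Of 7 sarcoma or mesenchymal markers, 5 were well above background in both groups, Vim, S100a4 and Cd44 among them, and Thy1 and Pdgfrb were not on any array. In limma, 3642 of 13539 genes were called at an adjusted p under 0.05 (Benjamini-Hochberg), 2271 higher and 1371 lower with fluoxetine. The median change over all genes was 0.06. No gene was called (0 genes) without fluoxetine 1, without fluoxetine 2 or without a filter on dim probes, and 989 were called without control 1. At an unadjusted p under 0.05, limma had 4069 genes without fluoxetine 1, 4535 without fluoxetine 2 and 5267 without the filter, against 5955 with all arrays. Scaling to the array median gave 5465 higher and 812 lower.

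The sequences upstream of Creb3l3 are shown because it is the member whose signal differed most between the groups. They are the 250 bases before each of the 2 starts that the RefSeq promoter table (GRCm38.p6) lists, read 5′ to 3′ on the strand of the gene, the minus strand. The table does not say which start the cells use. Capitals mark TGACG, the core of the cAMP response element that proteins of the CREB and ATF class are known to bind.
Creb3l3, chr10:81092592-81092841: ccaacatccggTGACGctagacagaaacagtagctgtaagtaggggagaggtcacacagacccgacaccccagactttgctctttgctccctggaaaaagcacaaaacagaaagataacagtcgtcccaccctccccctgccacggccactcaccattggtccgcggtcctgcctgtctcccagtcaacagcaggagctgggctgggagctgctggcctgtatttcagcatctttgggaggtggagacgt
Creb3l3, chr10:81098873-81099122: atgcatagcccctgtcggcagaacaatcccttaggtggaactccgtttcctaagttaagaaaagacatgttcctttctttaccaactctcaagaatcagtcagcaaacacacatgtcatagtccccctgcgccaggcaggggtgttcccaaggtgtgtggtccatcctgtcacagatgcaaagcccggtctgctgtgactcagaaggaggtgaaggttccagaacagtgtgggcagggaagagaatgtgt
The core occurred once in the first window and not in the second. Windows were found for 7 of the 9 members (Atf6 and Creb3l1 were not matched), and 4 of the 7 held TGACG on either strand, namely Creb3l2, Creb3l3, Creb3l4 and Mbtps1. Over all 32851 windows of this length 17.8% held it. That share is by window, whereas the members are counted by gene, and a gene with several starts has several windows. The full cAMP response element TGACGTCA, the unfolded protein response element TGACGTGG, the ER stress response element (CCAAT and CCACG with 9 bases between them), its second form (ATTGG and CCACG with 1 base between them) and the ATF4 composite element TGATGNAA were searched on both strands and occurred in 0 of the 7. TGACGTCA and TGACGTGG both contain TGACG. A match is a description of letters and not a measured binding site.

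Creb3l3 encodes CREB-H, known from liver and small intestine. Its probe had a processed signal, in scanner units, of 64.0 and 65.9 on the 2 control arrays and of 349 and 331 on the 2 fluoxetine arrays. Both fluoxetine arrays lay far above both control arrays. After scaling, as log2 values relative to the 75th percentile of each array, the levels were -2.81 and -2.66 in control and -0.03 and -0.34 with fluoxetine. The difference was 2.55 ± 0.15 on the log2 scale (standard error from limma, n = 2 arrays per group, as for every ± below), a 5.85-fold higher signal. Leaving out any 1 array gave between 2.39 and 2.70. The controls lay 0.15 apart, and 44.0% of kept probes had a larger gap between the controls. With normexp background correction the difference was 1.76.

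In bulk RNA, a change in how many cells express a gene and a change in RNA per cell cannot be told apart. The change of Creb3l3 was the 25th from the top among all 13539 genes tested. Among the 12727 genes above background on all 4 arrays it was the 6th. Both places follow from the contrast used to choose it.

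The other CREB3 genes showed small differences. Creb3l4, a relative known from prostate and testis, had log2 levels of -1.68 and -1.32 in control against -0.97 and -0.99 with fluoxetine, a difference of 0.51 ± 0.15. The groups did not overlap, but the 2 controls lay 0.36 apart, and the difference was 0.33 without control 1 and 0.70 without control 2. Creb3l2, also called BBF2H7 and known from cartilage secretion, read 0.58 and 0.70 in control and 0.92 and 0.95 with fluoxetine, a difference of 0.30 ± 0.09 without overlap.

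Creb3l1, also called OASIS and known from bone matrix, had a dim probe with signals of 84.4 (control 1) and 42.6 (control 2), then 48.0 and 43.8 with fluoxetine. By signal, control 1 stood above the other 3 arrays, which lay close together. On the scaled log2 values, control read -2.41 and -3.29 and fluoxetine -2.89 and -3.26, and the groups overlapped. The difference of -0.23 ± 0.35 was smaller than its error and went from -0.66 without control 2 to 0.21 without control 1.

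Creb3, also called Luman, was measured by 2 probes that did not move together. The probe A_52_P135707 read 1.17 and 1.35 in control and 1.53 and 1.42 with fluoxetine, a difference of 0.21 ± 0.11. The probe A_52_P231714 read 1.33 and 1.28 in control and 1.13 and 1.16 with fluoxetine, a difference of -0.16 ± 0.08. Within each probe the groups did not overlap, and the probes pointed in opposite directions. With scaling to the median the second was at 0.05, and with normexp the first was at 0.01.

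**Figure D1:**
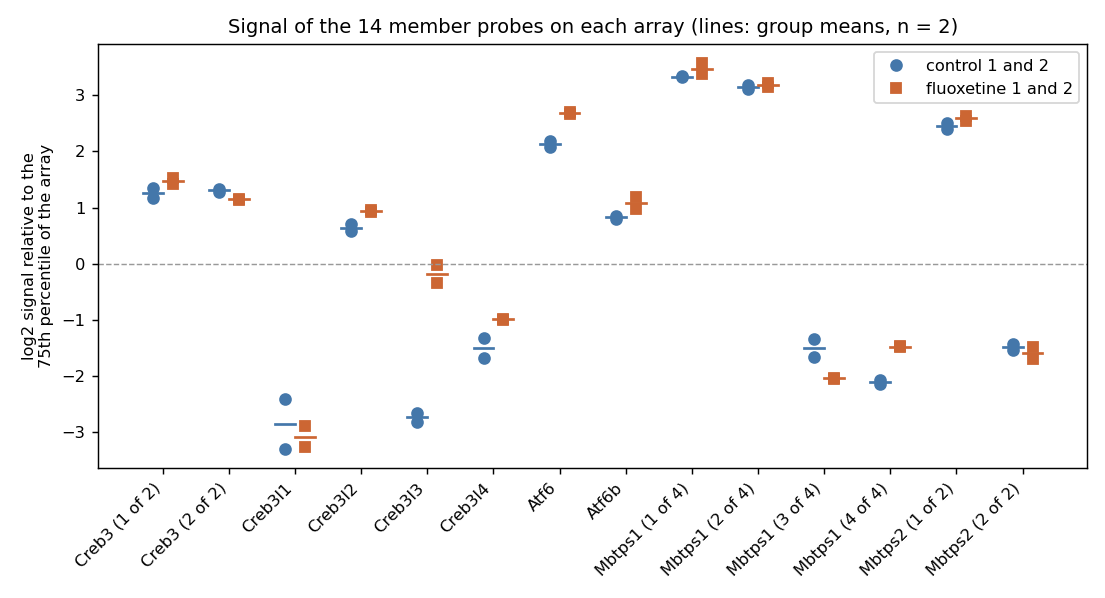
Log2 signal relative to the 75th percentile of each array for the 14 probes, with control arrays as circles, fluoxetine arrays as squares and lines at the group means (n = 2). The fluoxetine arrays of Creb3l3 lie at -0.03 and -0.34, above its controls at -2.81 and -2.66, and heights of different probes are not comparable.

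Atf6 encodes the main stress sensor of the ATF6 pair. Its probe read 2.08 and 2.19 in control and 2.70 and 2.66 with fluoxetine on the log2 scale. Both fluoxetine arrays were higher than both controls, by 0.55 ± 0.09 or 1.46-fold, with 0.50 to 0.60 when 1 array was left out. Atf6b, the second ATF6 gene, whose product is regarded as the weaker activator, read 0.80 and 0.85 in control and 1.19 and 0.98 with fluoxetine. The groups did not overlap, and the difference was 0.26 ± 0.11.

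Mbtps1, the site-1 protease gene, had 4 probes of the same accession that disagreed. The pair with high signals (A_55_P2912526 and A_55_P2047325) differed between the groups by 0.15 ± 0.10 and 0.03 ± 0.09. Of the pair with low signals, A_52_P406482 had signals of 177 and 132 in control and 87.6 and 101 with fluoxetine, a log2 difference of -0.54 ± 0.14. The probe A_52_P589065 had signals of 107 and 94.3 in control and 127 and 152 with fluoxetine, a log2 difference of 0.63 ± 0.08. Both of these probes were without overlap between the groups and opposite in sign, and both kept their sign under the 3 other scalings or background corrections and without any 1 array. The files do not say which part of the transcript each probe covers.

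Mbtps2, the site-2 protease gene, had 2 probes. The brighter, A_55_P2792072, read 2.40 and 2.50 in control and 2.55 and 2.63 with fluoxetine, a difference of 0.14 ± 0.09. The dimmer, A_55_P2185910, read -1.54 and -1.43 in control and -1.48 and -1.70 with fluoxetine, overlapping, with a difference of -0.11 ± 0.12.

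Taking 1 probe per gene, the brightest, 2 of the 9 genes passed an adjusted p under 0.05 in the limma fit, Creb3l3 and Atf6, both higher, where 26.9% of all genes passed. The groups did not overlap for 8 of 9 genes, all higher with fluoxetine, against 72.5% of all genes in either direction. Over the 14 probes, 9 lay higher without overlap (35.9% of all kept probes did), 2 lay lower without overlap (36.6%) and 3 overlapped. In the fit by probe 3 of the 14 passed, against 25.6% of all kept probes. These shares follow in part from how the members were chosen and nothing is read from them. The median change of the 9 genes was 0.26, and 0.24 without Creb3l3, against 0.06 over all genes.

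Scaling to the array median in place of the 75th percentile raised the median change of all genes to 0.27 and the changes of the members with it. Under that scaling 8 of the 9 genes passed, where 6277 of all 13539 genes tested did, and Creb3l1 was at -0.01. Read against that median, Creb3l3 (2.76), Atf6 (0.76) and Creb3l4 (0.73) lay well above it, and Creb3 (0.42), Mbtps1 (0.36) and Mbtps2 (0.35) close to it. With the 75th percentile scaling and any 1 array left out, Creb3l3 lay between 2.39 and 2.70 and Atf6 between 0.50 and 0.60. Creb3l1 went from -0.66 to 0.21.

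**Figure D2:**
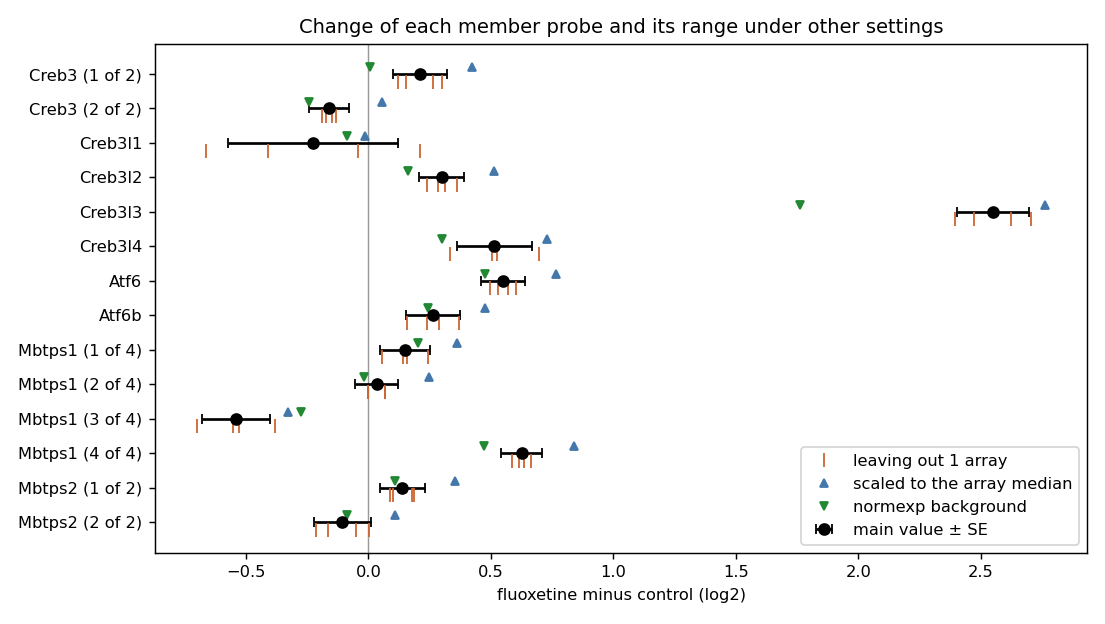
Change of each probe (fluoxetine minus control, log2) as a black point with the standard error, vertical ticks for the value without each array, and triangles for median scaling and normexp background correction. The change of Creb3l3 ranges from 1.76 to 2.76 over these settings, and 4 of the 14 probes, 1 each of Creb3, Creb3l1, Mbtps1 and Mbtps2, change sign under 1 or more of the scalings or without 1 array.

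The 5 genes whose pattern over the 4 arrays was closest to that of Creb3l3 were Ccn3, a matricellular gene, Ndrg4, the small nucleolar RNA Snora34, the AMP deaminase gene Ampd3 and the small heat shock gene Cryab. Likeness was the root mean square difference of mean-centred log2 values, searched over 12726 genes, and ran from 0.12 for Ccn3 to 0.17 for Cryab. Their differences between groups lay between 2.28 for Cryab and 2.77 for Ampd3. With 2 groups of 2 arrays, such likeness reflects mainly the size of the difference.

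Downstream genes were taken from 8 lists drawn up around the members' known roles. Apart from the members they hold 141 genes, of which 117 were tested. The fit called 39 of them higher (33.3%) and 5 lower (4.27%) and left 73 uncalled, where 16.8% of all genes rose and 10.1% fell, and their median change was 0.22. The counts fell to 6 rises and 2 falls without control 1, to 25 rises without control 2, and to 0 of both without either fluoxetine array. No set test was run, so whether the shares called are particular to the lists was not tested. Adjusted p-values below are from limma with Benjamini-Hochberg adjustment over all genes.

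Among 25 targets of ATF6 and XBP1 in the ER, 8 rose, 1 fell and 16 did not pass, with a median of 0.15. Ddit3, which encodes the stress factor CHOP and also responds to ATF4, rose by 2.11 ± 0.13 (adjusted p = 0.00954). The ER chaperone gene Hyou1 rose by 0.82 ± 0.08 (adjusted p = 0.0134), with the opposite sign in 1 of its 2 further probes. The ERAD gene Derl3 rose by 0.81 ± 0.08 (adjusted p = 0.0137). Xbp1, whose transcript ATF6 raises and IRE1 splices, rose by 0.66 ± 0.09 (adjusted p = 0.0205), and Herpud1, an ERAD membrane protein gene, by 0.51 ± 0.09 (adjusted p = 0.0263). The translocon gene Sec61b fell by 0.35 ± 0.08 (adjusted p = 0.0426).

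The chaperone gene Hspa5 encodes BiP, the ER protein that holds ATF6 back. Its brightest probe was at -0.03 ± 0.08 (adjusted p = 0.823). Both other kept probes of Hspa5 were higher with fluoxetine, without overlap between the groups. Their mean log2 levels were 4.803 and 3.962 in control, and 5.169 and 4.307 with fluoxetine. Pdia6, a disulfide isomerase gene, was at 0.01 and Creld2 at 0.15, and neither passed. The other genes of this list that rose were the lectin chaperone gene Calr, Edem1 (0.39), which acts in ERAD, and the cochaperone gene Dnajb9 (0.31), whose other kept probe had the opposite sign. Without control 1 the list had 3 rises and 0 falls, and Xbp1, Herpud1, Calr and Sec61b did not pass.

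The ER stress response element, the DNA element that ATF6 is known to bind with the factor NF-Y, occurred in the upstream windows of 9 of the 21 list genes that had one, against 0.113% of all windows. Its second form was in 1, Herpud1, against 0.0304%. As above, list genes are counted by gene over all their windows and the background by single window. The list was drawn up from known targets of ATF6 and XBP1, so a high share follows in part from that choice. The sites of 3 genes that rose (Calr, Derl3 and Herpud1) and 3 that did not pass (Hspa5, Pdia6 and Creld2) are printed to set the element beside the transcript values. Hspa5 is placed by its brightest probe, and both its other kept probes were higher with fluoxetine, without overlap between the groups. The sites come from the RefSeq table (GRCm38.p6) and are read on the strand of the match, with the fixed bases in capitals.
Calr, chr8:84847075-84847093: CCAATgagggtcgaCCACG
Derl3, chr10:75893242-75893260: CCAATggggaagtcCCACG
Herpud1, chr8:94386377-94386387: ATTGGgCCACG
Hspa5, chr2:34772025-34772043: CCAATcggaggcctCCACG
Pdia6, chr12:17266491-17266509: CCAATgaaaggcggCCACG
Creld2, chr15:88819520-88819538: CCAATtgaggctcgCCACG
Of the 10 genes with either form, 3 rose and 7 did not pass, with a median of 0.19. Of the 11 with a window and no match, 4 rose, 1 fell and 6 did not pass, with a median of 0.26. The difference between these groups of genes was not tested.

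Of 19 genes for the other stress sensors and partner factors, 6 rose, 2 fell and 11 did not pass, with a median of 0.33. Atf7 rose by 0.79 ± 0.11 (adjusted p = 0.0205), Xbp1 as above, and Atf3, an immediate stress factor gene, by 0.62 ± 0.08 (adjusted p = 0.019). Yy1, which encodes a zinc finger factor that can act with ATF6, fell by 0.62 ± 0.12 (adjusted p = 0.0342), with 1 of 2 other kept probes opposite. Atf4, the effector of the integrated stress response, was at 0.33 ± 0.14, Ern1, which encodes the sensor IRE1, at -0.13 ± 0.09, and Gtf2i at 0.19, and none of these passed. Without control 1 the list had 0 rises and 0 falls, and with the replicate number as a block 3 rises and 1 fall.

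Genes that hold, escort or degrade the factors numbered 17, of which 4 were too dim to test. Of the 13 tested, 5 rose, 1 fell and 7 did not pass, with a median of 0.22. Nucb1, whose product is known to restrain cleavage of ATF6 by the site-1 protease, rose by 0.72 ± 0.09 (adjusted p = 0.0161). The lectin chaperone gene Calr rose by 0.58 ± 0.07 (adjusted p = 0.0179) and Os9, an ERAD lectin gene, by 0.41 ± 0.08 (adjusted p = 0.0316). Crebzf, which encodes a leucine zipper partner of HCFC1, fell by 0.59 ± 0.07 (adjusted p = 0.0174). Crebrf, which encodes a regulator of CREB3 turnover, was at 1.08 ± 0.27 and did not pass (adjusted p = 0.0551), and the ubiquitin ligase gene Syvn1 was at 0.22. Without control 1 none of the list was called (0 genes), and without control 2 there were 2 rises and 1 fall.

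The same proteases also release the sterol factors SREBP. Of 13 genes for their other substrates, for the SREBP escort machinery and for SREBP targets, 8 rose, 0 fell and 5 did not pass, with a median of 0.55. Insig1, the sterol-sensing anchor gene, rose by 0.88 ± 0.07 (adjusted p = 0.0117). Hmgcs1, a sterol synthesis gene, rose by 0.81 ± 0.09 (adjusted p = 0.0155). Srebf1 (0.70 ± 0.08), the escort gene Scap (0.55 ± 0.10) and Srebf2 (0.42 ± 0.09) rose with adjusted p of 0.0164, 0.0306 and 0.0398. The anchor gene Insig2 (0.39) and the ubiquitin ligase gene Rnf139 (-0.12) did not pass. Without control 1 there were 2 rises, Insig1 among them, and with the replicate block 5.

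Golgi genes tied to CREB3 in Golgi stress showed 7 rises, 0 falls and 5 that did not pass among 12, with a median of 0.46. Arf4, the small GTPase gene known as a CREB3 target, rose by 0.58 ± 0.08 (adjusted p = 0.0207). The galactosyltransferase gene B4galt1 rose by 0.90 ± 0.08 (adjusted p = 0.0124), the ARF exchange factor gene Gbf1 by 0.62 ± 0.11 (adjusted p = 0.0313) and Gmppa by 0.55 ± 0.08 (adjusted p = 0.0207). Golgb1 also rose (0.53), but both its other kept probes had the opposite sign. Arf1 was at 0.00 and Cog3 at 0.22, and neither passed. Averaging the kept probes of a gene gave 5 rises and a median of 0.34. With the replicate number as a block 1 of these Golgi genes was called, 1 without control 1 and 2 without control 2.

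COPII coat and secretory load genes were listed for the secretory role of CREB3L1 and CREB3L2, and not all are known targets. They counted 3 rises, 0 falls and 22 that did not pass among 25, with a median of 0.10. The retrieval receptor gene Kdelr3 rose by 0.65 ± 0.11 (adjusted p = 0.0288), Sec13 by 0.46 ± 0.08 (adjusted p = 0.0304) and Sec31a by 0.40 ± 0.08 (adjusted p = 0.0356). Sec24c was at 0.13 and Tmed2 at 0.07, and neither passed. Scaling to the array median gave 16 rises in this list, while the replicate block and the fit without control 1 gave 0 rises and the fit without control 2 gave 1.

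Of 14 collagen and matrix genes of CREB3L1, 4 were too dim to test, 3 rose, 2 fell and 5 did not pass, with a median of 0.25. Col1a2, a type I collagen gene, was at least 2.38-fold lower, as fluoxetine arrays did not hold it above background (adjusted p = 0.0119). This bound sets the control mean against the lowest signal well above background on the dim arrays. Sparc, a matrix glycoprotein gene, fell by 0.62 ± 0.07 (adjusted p = 0.0162). The collagen-modifying enzyme gene P4hb rose by 0.71 ± 0.09 (adjusted p = 0.0183) and Col6a1 by 0.56 ± 0.08 (adjusted p = 0.0202). Fn1 (0.32) and Spp1 (-0.03) did not pass. Without control 1 there were 0 rises and 2 falls, and Sparc, P4hb and Col6a1 did not pass.

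**Figure D3:**
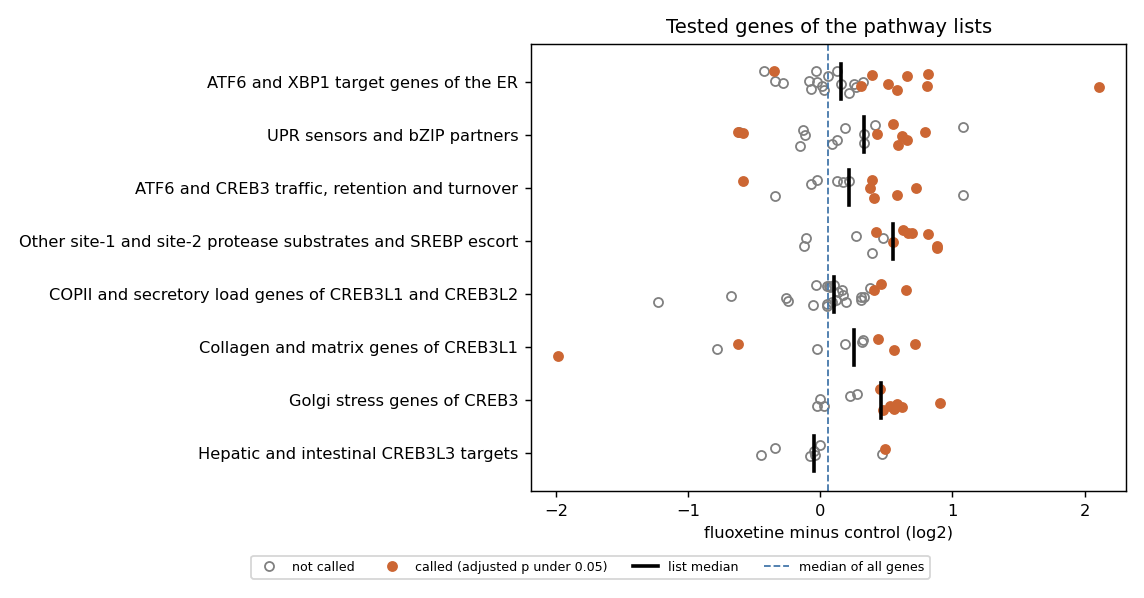
Changes (fluoxetine minus control, log2) of the tested genes of the 8 lists, filled where the adjusted p was under 0.05, with a bar at the list median and a dashed line at the median of all genes (0.06). List medians run from -0.05 for the CREB3L3 targets to 0.55 for the protease substrates and SREBP genes.

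Liver and intestine genes known as CREB3L3 targets were mostly not detected. Of 24, 16 were too dim to test, among them Fgf21 (signals of 4.93 to 7.18 over the 4 arrays), a fasting hormone gene, and Hamp (3.69 to 11.0), the hepcidin gene. Of the 8 tested, 1 rose, 0 fell and 7 did not pass, with a median of -0.05, which was positive with median scaling (0.17) and with normexp or quantile scaling (0.09 each). The acute phase gene Saa3, at 164 and 173 in control and 199 and 225 with fluoxetine, rose by 0.49 ± 0.10 (adjusted p = 0.0358), and was not called without control 1 or with the replicate block. Saa1 (-0.04) and the sterol transporter gene Npc1l1 (-0.45 ± 0.12, adjusted p = 0.0654) did not pass.

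**Figure D4:**
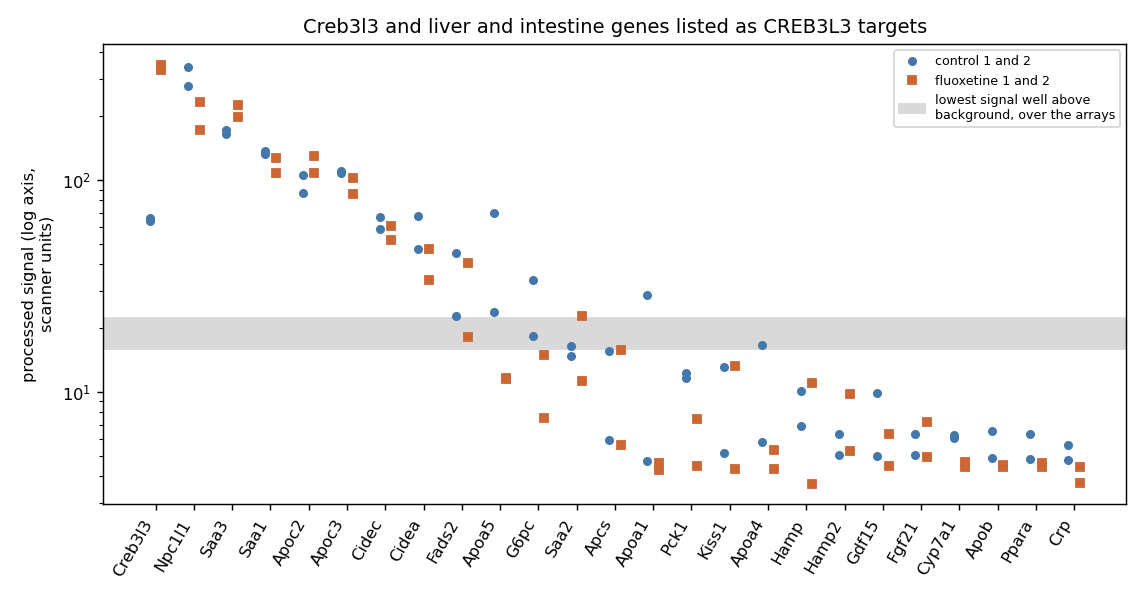
Processed signal on a log axis for Creb3l3 and the brightest probe of each of the 24 listed targets, control as circles and fluoxetine as squares, with a grey band for the lowest signal well above background on each array (15.8 to 22.3). Creb3l3 goes from 64.0 and 65.9 to 349 and 331, while 16 of the targets were too dim to test.

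Markers of the cell types in which Creb3l3 is best known were checked beside it. Of 9 hepatocyte markers, 2 stood above background in control and 1 with fluoxetine on both arrays of the group, and 6, with Alb, Ttr, Fabp1 and Hnf4a among them, were not on any array. Their summed level, in multiples of the 75th percentile, was 1.12 to 1.44 in control and 1.27 to 1.29 with fluoxetine. Apoa2 made up most of that sum on each array. Of 6 enterocyte markers 2 were above background on both arrays of each group, and both rose, Fabp2 by 1.61 (adjusted p = 0.0124) and Anpep by 1.21 (adjusted p = 0.0215), although Anpep did not pass without control 1. Vil1 was above background on 1 control array only and was not tested. Its log2 levels were lower with fluoxetine (-4.92 and -4.80) than in control (-3.84 and -3.49), without overlap. Cdx2, Lct and Sis were not above background on any array, and the dim values of Lct were also lower with fluoxetine without overlap. The markers of this list therefore did not all move in the same direction. The summed level of the enterocyte markers, most of it Anpep on each array, was 0.838 to 0.877 in control and 1.64 to 2.00 with fluoxetine. The part of these markers in the signal of Creb3l3 was not tested.

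Among the other markers compared, 4 of 7 leukocyte markers and 1 of 3 endothelial markers were above background in both groups. Ptprc, the pan-leukocyte marker, was not. The summed leukocyte level was 25.6 to 27.9 in control and 52.9 to 61.0 with fluoxetine, and its members moved in opposite directions. Most of that sum was Cd68 on each array. Cd68, a lysosomal macrophage marker with signals of 8752 and 9101 in control and 20844 and 21034 with fluoxetine, rose by 1.39 (adjusted p = 0.0119) and Cd3e by 0.52 (adjusted p = 0.0313). Itgam, the CD11b gene, fell by 1.96 (adjusted p = 0.00645), and Csf1r, at -0.16, did not pass. Cd3e did not pass without control 1, and Cd3e and Itgam did not pass when the kept probes of a gene were averaged. The part of these markers in the members' values was not tested.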

How the data were processed

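Total RNA from 2 control and 2 fluoxetine samples was hybridised to single-colour arrays. Each deposited file gives linear spot intensity per array from Feature Extraction 12.1.0.3, before any scaling across arrays, per the file headers. The other deposited columns used are yes-or-no marks (well above background, saturated, non-uniform), per the file headers. The sources used here do not give any later normalization.

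Non-control spots without a non-uniform mark were averaged per probe (56558 probes, 47 left out), put on the log2 scale relative to the 75th percentile of processed signal over the probes of that array, and analysed with R 4.3.3 and limma 3.58.1 (lmFit, eBayes, group only, Benjamini-Hochberg). A probe was kept when well above background on both arrays of a group (28270 probes), and a gene took its brightest kept probe (13539 genes). Symbols came from RefSeq (GRCm38.p6) by accession without version, with 34645 probes matched to 1 symbol. Fits were made by probe for the members and by gene for the lists, and the script was tested on simulated data.

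Named list genes were up to 4 called genes of largest change per list, 1 of the other direction, the 2 brightest that did not pass, and 13 regulators, of which Hamp and Fgf21 were too dim. 1 gene that the rule names is not reported here. Edem1, Dnajb9 and Golgb1 were named after their values were seen. Members and lists were chosen with earlier results of these data known. Alternatives covered background correction, scaling, filters, probe averaging, leaving out each array and the replicate number as a block. The titles' replicate numbers are not said to mark a shared culture or day. An exact permutation test of 2 arrays against 2 could not go below p = 0.333.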

Additional observations from a re-analysis of the deposited data

How the results depend on the processing

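The 2 arrays per group limit every comparison, and dim probes have only a bound where they are not well above background. Groups lie side by side, so slide position and treatment cannot be told apart. Of 154 values of the member probes under other settings, 129 moved by less than the spread between replicates, and Creb3l3 and Atf6 were higher in every setting run. Of 753 values of 63 named genes, 529 were classed as the same as in the main fit and 176 were no longer called. A further 20 were classed as stronger, 28 as moved and 0 as reversed. Median scaling raised the median change of all genes to 0.27, so uncalled genes just below 0, such as Hspa5 (-0.03), can still change sign.

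With all arrays 3642 genes (2271 higher, 1371 lower) and 7239 probes were called. Scaling to the array median gave 6277 genes (5465 higher, 812 lower), 8 of the 9 member genes, and 73 listed genes higher and 3 lower. Quantile scaling gave 8 listed genes lower. Without a filter on dim probes 0 genes and 0 probes were called in limma, with 5267 genes at an unadjusted p under 0.05, so 0 member genes and 0 listed genes were called in either direction. Leaving out 1 array gave 0 to 2671 genes (0 to 1708 higher, 0 to 963 lower), 0 to 4624 probes, 0 to 3 member genes, and 0 to 25 listed genes higher and 0 to 6 lower, with 4069 to 5610 genes at an unadjusted p under 0.05. The cause of these changes was not tested.

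The replicate numbers of the labels are shared between the groups. Same-numbered samples deviated from their group means with a correlation of -0.12 across 13539 genes (2 pairs). With 2 pairs, this value cannot show whether same-numbered samples share a culture or day. With the replicate number as a block, 1853 genes (1081 higher, 772 lower), 1520 probes, 1 member gene and 14 listed genes higher were called. The crossed pairing gave 2631 genes and 3480 probes. The crossed pairing and the normexp correction on median signals (3704 genes) were chosen after seeing the data.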
